A study of Canis lupus familiaris with 6 samples.

Results

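The genes described here build, coat and empty the lipid droplet, the store of triglyceride in a cell. The set has 10 members, taken by gene name: ACSL3, GPAM, AGPAT2, LPIN1, DGAT1, DGAT2, PLIN2, PLIN3, PNPLA2 and HILPDA. Of these, 9 had a row of that name among the 29822 genes of each library, and all 9 passed the filter on low counts that left 15397 genes for testing. HILPDA, a droplet protein that restrains triglyceride breakdown, had no row of that name and was not analysed here. The cells were CMM10, a canine malignant melanoma line. They were kept either under hypoxia (3 libraries) or under normoxia (3 libraries), and no other agent or genetic change is given in the labels. The labels state neither the oxygen level, nor the duration, nor whether the replicates were separate cultures, so the p-values measure only the spread between these libraries, which may be technical.

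Triglyceride is made at the endoplasmic reticulum by adding fatty acyl chains to a glycerol backbone. Acyl-CoA synthetases first activate the fatty acid. Glycerol-phosphate acyltransferases and then acylglycerol-phosphate acyltransferases add chains, lipins remove the phosphate to give diacylglycerol, and diacylglycerol acyltransferases add the last chain. The product collects in droplets coated by perilipins, and adipose triglyceride lipase, the product of PNPLA2, starts its release. Droplet build-up under low oxygen is well known in many cell types, and lipid droplets are studied in tumour cells as a fuel store and as a buffer against toxic free fatty acids.

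Each library held 23196647 to 28804337 reads assigned to genes, and the 9 genes had between 138 (DGAT2) and 7668 (LPIN1) reads in a library. The 3 genes used to check the condition, CA9, SLC2A1 and VEGFA, were all higher under hypoxia, with log2 fold changes of 3.77, 2.49 and 1.80. Of 8 melanocyte markers, MITF, SOX10 and DCT were expressed at 21.9 to 79.6 TPM (a read level corrected for exon length and library size) in each library, PMEL, MLANA and S100B at 0.44 to 3.00 TPM, and TYR and TYRP1 at 0 to 0.063 TPM. The summed melanocyte level overlapped between conditions (136 to 149.6 TPM under hypoxia and 129 to 146 under normoxia), while SOX10 was called higher (0.40, adjusted p = 2.91e-06) and DCT lower (-0.23, adjusted p = 0.00141). Of 7 adipocyte markers 6 had a row, and their sum was lower under hypoxia (19.5 to 21.4 TPM against 24.3 to 26.4 TPM). Within that list LEP was at or near 0, PLIN1 stayed below 0.54 TPM, and PPARG and FABP4 were called lower. LIPE (0.16, adjusted p = 0.167) and CIDEC (0.18, adjusted p = 0.687) were above 0 and not called, so the list did not move one way. Fibroblast markers summed to 2840 to 2934 TPM under hypoxia and 2176 to 2307 TPM under normoxia, nearly all of it from COL1A2. Of 5 fibroblast markers tested, 3 were called higher: COL1A2 (0.40), COL1A1 (0.28, adjusted p = 1.01e-07) and PDGFRA (2.01, adjusted p = 1.44e-10, at 0.54 TPM under normoxia and 2.40 TPM under hypoxia). COL3A1 was not called (-0.10), LUM did not exceed 0.30 TPM and DCN 3.27 TPM. Leukocyte markers summed to at most 1.18 TPM. Fewer cells of a type and less RNA per cell cannot be told apart in such bulk samples, and the part of these markers in the results below was not tested.

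Under hypoxia the storage genes did not move as a block. LPIN1 (2.52-fold) and PLIN3 (1.31-fold) were higher, PNPLA2 was lower by 32.5%, and the smaller falls of DGAT2, DGAT1 and ACSL3 also passed the test. PLIN2, GPAM and AGPAT2 did not. In all, 2 of 9 genes were called higher and 4 called lower at a Benjamini-Hochberg adjusted p below 0.05 (edgeR's quasi-likelihood test), while 24.5% of all 15397 genes tested were called higher and 24.4% lower. That split was 3778 genes higher and 3761 lower, and 3076 higher and 4862 lower when only total reads were used for scaling. With so many genes called across the transcriptome, these shares describe the set and do not set it apart. The median log2 fold change of the 9 genes was -0.09, against 0.00 for all genes tested. In 6 of the 9 genes the hypoxia range lay clear of the normoxia range, compared with 55.3% of all genes. Levels below are CPM (gene reads scaled to library size times a TMM factor per library, as in the test). These factors were 0.97 to 0.98 under hypoxia and 1.02 to 1.03 under normoxia. Changes are log2 fold changes of hypoxia over normoxia ± SE. Positions are those of the CanFam3.1 build.

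**Figure D1:**
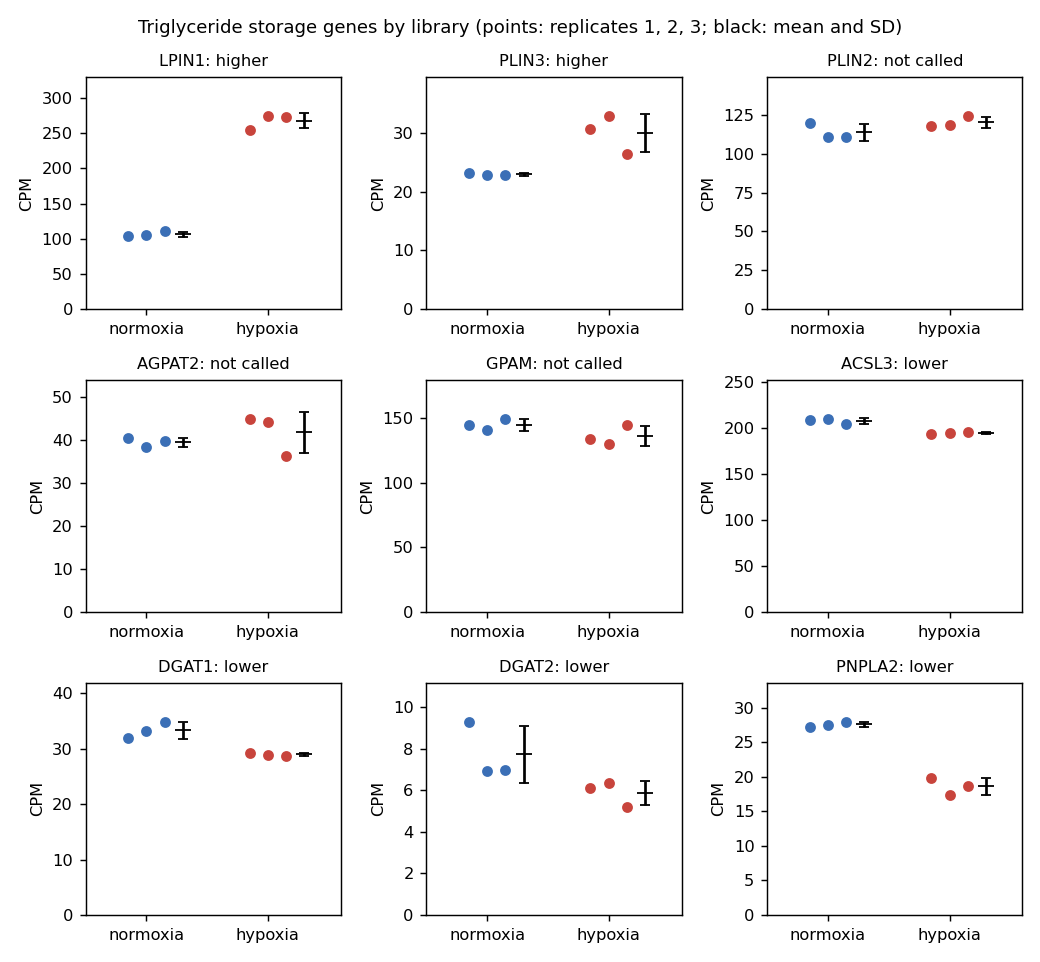
Each panel plots the CPM (vertical axis, from 0) of 1 storage gene in the 3 normoxia (blue) and 3 hypoxia (red) libraries, with mean and SD in black and the test's call in the title. The hypoxia points of LPIN1 lie at 255 to 275 CPM, far above normoxia at 103 to 111, whereas the points of PLIN2, AGPAT2 and GPAM overlap between conditions.

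Fatty acid activation is represented by ACSL3, a long-chain acyl-CoA synthetase found at the endoplasmic reticulum and on nascent droplets (chromosome 37, 28864147 to 28938866). It was among the most abundant of the 9 genes, at 193, 194 and 196 CPM in hypoxia replicates 1, 2 and 3 and at 208, 209.7 and 204 CPM in normoxia replicates 1, 2 and 3. The groups did not overlap, yet the difference was small. ACSL3 was called lower by 6.20% (-0.09 ± 0.035, adjusted p = 0.029). Leaving out hypoxia replicate 1 or 2, or normoxia replicate 1 or 2, ended this call (adjusted p of 0.0618 to 0.0928, with changes of -0.09 in each case).

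The members of the set that act in the first acylation steps, GPAM and AGPAT2, showed no called change. Of their family partners, GPAT3 and AGPAT5 were called lower and AGPAT1 and AGPAT4 higher, as given below. GPAM, the mitochondrial glycerol-phosphate acyltransferase (chromosome 28, 23258428 to 23298017), stood at 134, 130.4 and 145 CPM under hypoxia and at 145, 141 and 149.7 CPM under normoxia. Its highest hypoxia value reached into the normoxia range, and the change was -0.09 ± 0.042 (adjusted p = 0.0796, 95% interval -0.17 to -0.01). Introns held 60.0% of its reads. GPAM passed the test without hypoxia replicate 3 (-0.14, adjusted p = 0.00871) and when only total reads were used for scaling (-0.16, adjusted p = 0.00223). AGPAT2, which acylates lysophosphatidic acid to phosphatidic acid (chromosome 9, 48864376 to 48877620), gave 44.9, 44.1 and 36.3 CPM under hypoxia and 40.3, 38.2 and 39.7 CPM under normoxia. Hypoxia replicate 3 was the lowest of all 6 libraries and hypoxia replicates 1 and 2 the highest. The change of AGPAT2 was 0.08 ± 0.068 (adjusted p = 0.326, 95% interval -0.05 to 0.22), and without hypoxia replicate 3 it was called higher (0.17, adjusted p = 0.0216).

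LPIN1 encodes lipin 1, the phosphatidate phosphatase that makes the diacylglycerol from which triglyceride is formed, and which also acts in the nucleus as a transcriptional coregulator. The gene lies on chromosome 17 from 8348886 to 8478863, with 8 annotated transcripts that the counts do not separate. LPIN1 was measured at 255, 275 and 273 CPM in hypoxia replicates 1 to 3 and at 103, 105 and 111 CPM in normoxia replicates 1 to 3. All hypoxia libraries were above all normoxia libraries, with a gap many times the spread within either group. The rise was 1.33 ± 0.040 (adjusted p = 1.74e-23), and 97.1% of all genes tested had a lower log2 fold change. LPIN1 remained called when each library was left out in turn, with changes of 1.31 to 1.37.

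The final step is shared by DGAT1 and DGAT2, enzymes of unrelated protein families that catalyse the same reaction. DGAT1 (chromosome 13, 37741706 to 37756916) was at 29.3, 28.9 and 28.6 CPM under hypoxia and at 31.9, 33.3 and 34.9 CPM under normoxia. Its hypoxia values were all lower, and the change of -0.20 ± 0.064 was called (adjusted p = 0.00896). From exon reads only, DGAT1 changed by -0.09 ± 0.080 and was not called (adjusted p = 0.351). From intron reads its change was -0.36 ± 0.11 (adjusted p = 0.00763). Its gene model shares 3547 bases with that of HSF1 on the opposite strand, and the library kit does not mark strand, so reads there cannot be assigned to 1 of the 2 genes. HSF1, the master regulator of the heat shock response, was itself lower, at 62.5 against 74.4 CPM (-0.25 ± 0.047, adjusted p = 4.24e-05). Its part in the DGAT1 value was not tested.

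DGAT2 (chromosome 21, 22834518 to 22851260) had the lowest level of the set. Its values were 6.10, 6.34 and 5.21 CPM under hypoxia and 9.32, 6.94 and 6.96 CPM under normoxia, from 138 to 247 reads a library. Normoxia replicate 1 stood well above the other 5 libraries. DGAT2 was called lower (-0.40 ± 0.14, adjusted p = 0.0194). The call ended without normoxia replicate 1 (-0.24, adjusted p = 0.211), without hypoxia replicate 3 (-0.32, adjusted p = 0.0913) and from exon-exon reads only (-0.29, adjusted p = 0.183).

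Among the droplet coats, PLIN2 and PLIN3 differed in outcome. PLIN2, the perilipin that covers droplets in most cell types outside fat (chromosome 11, 38940065 to 38959070), was at 118, 118 and 124 CPM under hypoxia and at 120.0, 110.5 and 110.5 CPM under normoxia. The ranges overlapped through normoxia replicate 1. The change of PLIN2 was 0.08 ± 0.043 (adjusted p = 0.125, 95% interval 0.00 to 0.16), and it was called higher only when normoxia replicate 1 was left out (0.12, adjusted p = 0.0381), among the alternatives run. PLIN3, a perilipin that moves between the cytosol and new droplets (chromosome 20, 54924149 to 54938167), was at 30.7, 33.0 and 26.5 CPM under hypoxia and at 23.3, 22.8 and 22.9 CPM under normoxia. The normoxia values lay close together, and even the lowest hypoxia value, that of replicate 3, was above them. PLIN3 rose by 0.39 ± 0.075 (adjusted p = 5.86e-05), and by 0.32 to 0.47 with 1 library left out.

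Breakdown of stored triglyceride begins with PNPLA2 (chromosome 18, 45182566 to 45187268). PNPLA2 was at 19.9, 17.3 and 18.6 CPM under hypoxia and at 27.2, 27.6 and 28.0 CPM under normoxia. Every hypoxia library was below every normoxia library. The fall of -0.57 ± 0.074 (adjusted p = 9.62e-08) was larger in size than the change of 83.5% of all genes tested, and only 4.14% of genes had a lower log2 fold change. With each library left out it ranged from -0.62 to -0.52 and stayed called.

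The deposited counts separate reads in exons, reads across exon junctions and reads in introns, which gives 3 further views of the same genes. For LPIN1 all 3 were called higher: 1.30 ± 0.045 from exon reads, 1.31 ± 0.047 from exon-exon reads and 1.40 ± 0.055 from intron reads. The exon change of LPIN1 minus its intron change was -0.10 ± 0.069 and was not called (adjusted p = 0.479). Introns held 44.4% ± 1.46 (SD, n = 3) of LPIN1 reads under hypoxia and 42.8% ± 0.49 (SD, n = 3) under normoxia. PLIN3 rose by 0.43 ± 0.088 in exon reads, by 0.32 ± 0.13 in exon-exon reads and by 0.34 ± 0.12 in intron reads (adjusted p = 1.17e-04, 0.0421 and 0.0247). PNPLA2 changed by -0.57 ± 0.079 in exon reads and by -0.48 ± 0.21 in intron reads, where only 60 to 105 reads a library were counted (adjusted p = 1.77e-07 and 0.0718). A test of the exon change against the intron change within libraries called 0 of the 9 genes at an adjusted p below 0.05 and 0 at an unadjusted p below 0.05 (edgeR's quasi-likelihood test; no other tool was run on it). At the adjusted threshold it called 5.67% of the 12265 genes that had enough reads of both kinds. The share of all genes at the unadjusted threshold is not given here. With so small a share called, 0 of 9 does not set these 9 genes apart. The largest difference was that of DGAT1 (0.26 ± 0.14, adjusted p = 0.355).

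**Figure D2:**
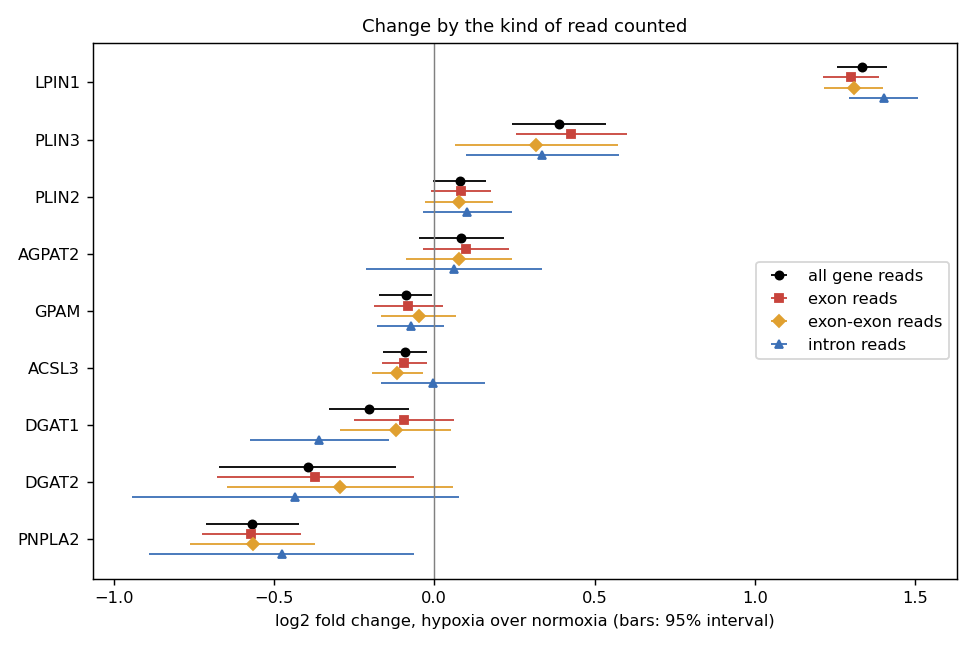
For each storage gene the log2 fold change of hypoxia over normoxia (horizontal axis) is plotted from all gene reads, exon reads, exon-exon reads and intron reads, with bars for the 95% interval. LPIN1 stands at 1.30 to 1.40 with every kind of read, and DGAT1 is at -0.09 from exon reads and -0.36 from intron reads.

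TPM, which corrects for exon length, allows levels of different genes to be set side by side. Under normoxia the order of mean TPM ran ACSL3 (123 ± 1.81, SD, n = 3), PLIN2 (101.5 ± 4.73), AGPAT2 (56.5 ± 2.50), PNPLA2 (36.5 ± 0.83), GPAM (34.9 ± 2.10), LPIN1 (33.3 ± 2.21), PLIN3 (30.3 ± 0.90), DGAT1 (16.5 ± 0.93) and DGAT2 (9.55 ± 1.56). PNPLA2 and GPAM overlapped in their TPM ranges, as did GPAM and LPIN1, so the order of these 3 is not resolved. Under hypoxia LPIN1 stood at 79.9 ± 2.36 TPM, in place 3 behind ACSL3 (112 ± 1.21) and PLIN2 (105 ± 5.66). PNPLA2 was at 24.0 ± 1.68 TPM, in place 7, below PLIN3 (39.7 ± 5.07) and GPAM (32.2 ± 2.29). No neighbours in the hypoxia order had overlapping ranges. The normoxia ranges of LPIN1 (32.0 to 35.8 TPM) and PNPLA2 (35.6 to 37.3 TPM) also overlapped, and under hypoxia these genes lay far apart.

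**Figure D3:**
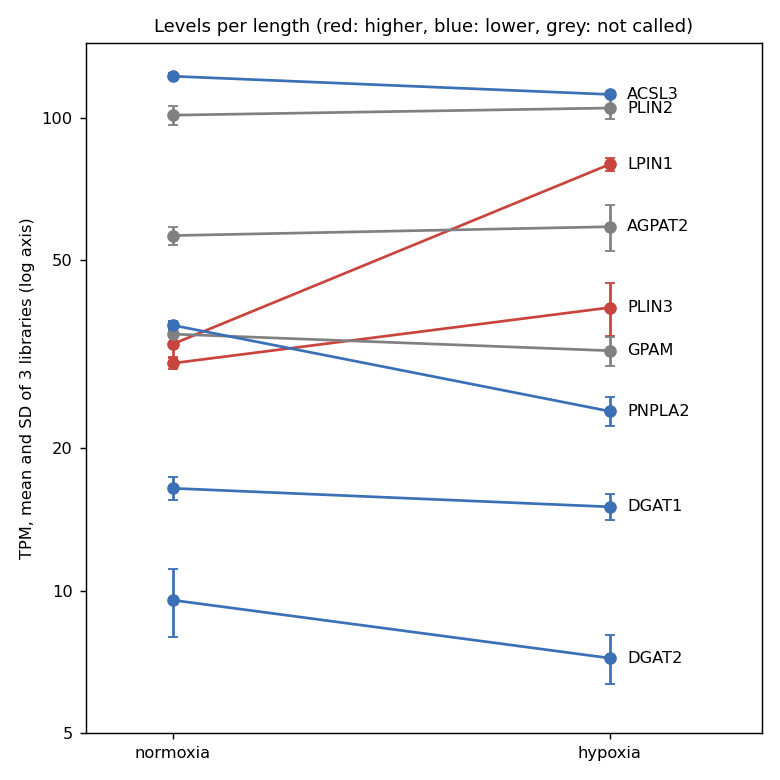
Mean TPM with SD of 3 libraries (vertical log axis) is drawn for each storage gene under normoxia and hypoxia, with lines in red for genes called higher, blue for lower and grey for not called. LPIN1 climbs from 33.3 to 79.9 TPM and crosses AGPAT2, while PNPLA2 drops from 36.5 to 24.0 TPM.

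Several members belong to families whose enzymes or coats can do related work, so each member's share of its family's summed TPM was compared. LPIN1 made up 32.5%, 33.7% and 34.7% of lipin TPM in normoxia replicates 1, 2 and 3 and 55.7%, 56.0% and 56.8% in hypoxia replicates 1, 2 and 3. This is a shift of 22.6 percentage points without overlap (two-sided exact permutation p = 0.1, the smallest that 3 against 3 can give, and 0.3 after adjustment over 6 families). LPIN2 (-0.06 ± 0.040, adjusted p = 0.207) and LPIN3 (-0.01 ± 0.060, adjusted p = 0.948) were not called, and the lipin sum went from 98.9 ± 4.26 to 142 ± 2.99 TPM (SD, n = 3). LPIN2, the leading lipin under normoxia at 50.1 TPM, thus came second to LPIN1 under hypoxia, at 46.8 TPM.

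PLIN2 held 76.6% ± 0.92 of perilipin TPM under normoxia and 72.2% ± 3.06 under hypoxia (SD, n = 3, two-sided exact permutation p = 0.1, adjusted 0.3). The ranges, 75.9% to 77.6% and 70.0% to 75.7%, came close to touching through hypoxia replicate 3. PLIN1, PLIN4 and PLIN5 together added little, each with a mean below 0.43 TPM in both conditions. DGAT1 held 63.4% ± 3.85 of the DGAT sum under normoxia and 67.6% ± 3.99 under hypoxia, with overlapping ranges (two-sided exact permutation p = 0.6). GPAM, at 35.4% and 34.2% of its family, and ACSL3, at 43.2% and 42.3%, also overlapped between conditions (exact permutation p = 0.5 for each). In the GPAT family GPAT4 led with 54.2 and 56.2 TPM under normoxia and hypoxia, and GPAT3 fell by 0.75 on the log2 scale. AGPAT2 went from 36.8% ± 1.24 to 33.9% ± 2.69 of its family (exact permutation p = 0.2). There AGPAT4 rose from 18.5 ± 1.33 to 35.7 ± 3.60 TPM (0.86 ± 0.068 on reads, adjusted p = 2.38e-12), AGPAT1 rose (0.18 ± 0.053) and AGPAT5 fell (-0.21 ± 0.069).

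**Figure D4:**
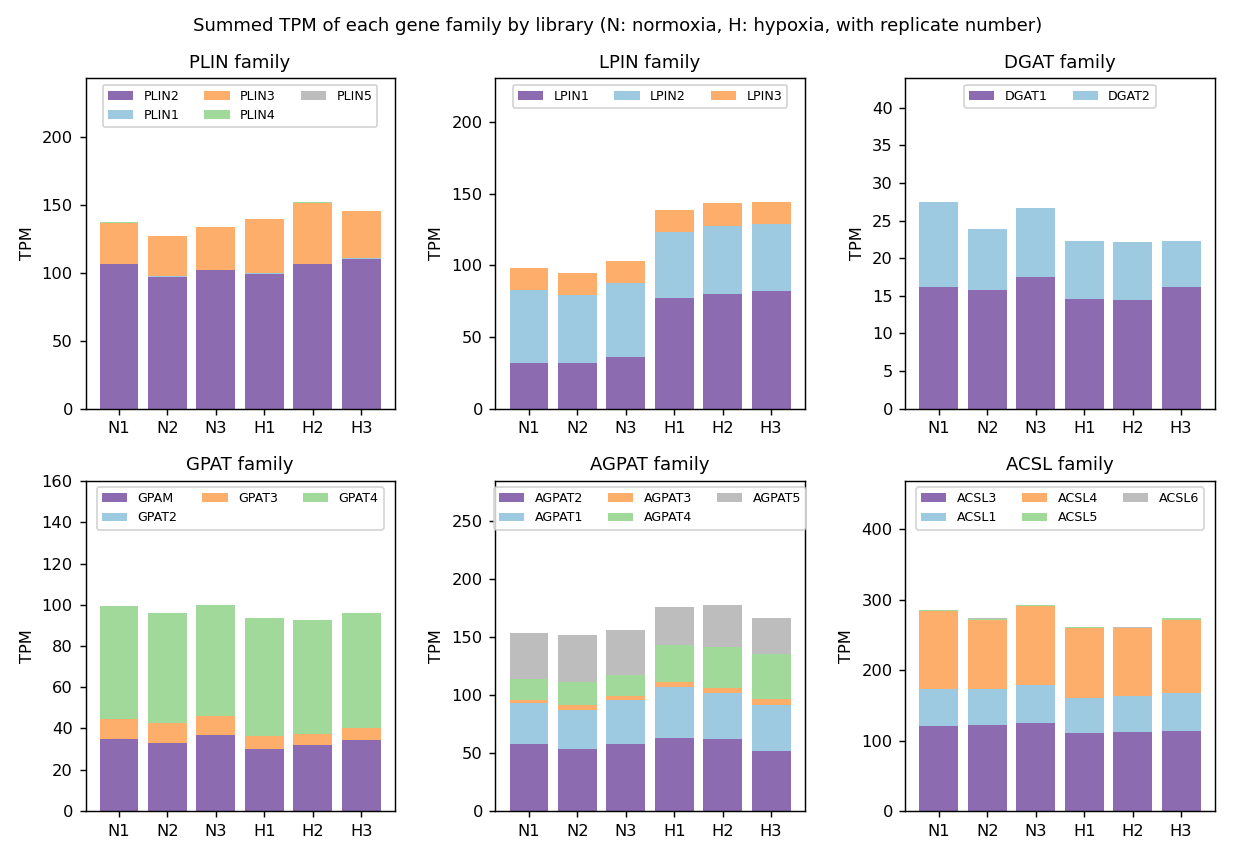
Stacked bars give the TPM (vertical axis, from 0) of every family member in normoxia (N1 to N3) and hypoxia (H1 to H3) libraries, with the storage gene of interest at the bottom in purple. The lipin bars rise from a mean of 98.9 to 142 TPM through the LPIN1 part, and the DGAT bars are lower under hypoxia (22.3 ± 0.14 against 26.0 ± 1.86 TPM, SD, n = 3).

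Other genes of the pathway were taken from lists chosen with earlier results of these data known. They are described by counts beside the background shares given above. Of 18 further genes of droplet coats and assembly, 12 were tested, 4 were higher and 1 was lower, with a median of 0.20. PCYT1A, the rate-limiting enzyme in making phosphatidylcholine, which covers the droplet surface, rose from 156.5 ± 1.63 to 221 ± 3.03 CPM (0.50 ± 0.036). Introns held 73.4% of PCYT1A reads, and from exon reads only its rise was 0.40. LDAH, a droplet-associated hydrolase, rose by 0.32 ± 0.068. RAB18, a small GTPase of the droplet surface, had the highest TPM of this list and was not called (0.01 ± 0.046). Of 15 further genes of triglyceride synthesis, 12 were tested, 2 were higher and 3 lower, with a median of -0.02. AGPAT4 and GPAT3 changed most. GPAT3 fell from 9.72 ± 0.85 to 5.79 ± 0.49 CPM (-0.75 ± 0.13, adjusted p = 7.75e-06), and GPAT4, which initiates synthesis at the endoplasmic reticulum and on droplets and whose model overlaps 4 others, was not called (0.09 ± 0.039, adjusted p = 0.0512, and 0.0432 from uniquely mapped reads, where it was called higher).

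Of 15 genes of fatty acid uptake and activation, 11 were tested, 4 were higher and 3 lower, with a median of 0.09. VLDLR, a receptor for triglyceride-rich lipoproteins, was at 21.0, 23.4 and 22.3 CPM under hypoxia and at 5.96, 4.94 and 4.74 CPM under normoxia (2.09 ± 0.11, adjusted p = 3.13e-17). SLC27A3, of the fatty acid transport protein family, rose from 15.6 ± 0.83 to 35.1 ± 2.16 CPM (1.17 ± 0.074). FABP3, a cytosolic fatty acid carrier, was the most abundant gene of this list at a mean of 1484 TPM over all libraries and rose by 0.64 ± 0.033. All 3 stayed called with each library left out. The models of SLC27A3 and PCYT1A each overlap 1 other gene, NPR1 and SLC51A.

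The lipolysis list places the fall of PNPLA2 among its partners. Of 11 further genes, 9 were tested, 1 was higher, 2 were lower and 6 were not called, with a median of -0.08. Of those not called, LIPE (0.16 ± 0.097, adjusted p = 0.167) and MGLL (0.21 ± 0.17, adjusted p = 0.337) were above 0. PNPLA3 (-0.10), ABHD6 (-0.17), ATG2A (-0.03) and ATG2B (-0.08) were below 0. ABHD5 encodes the coactivator of the lipase made by PNPLA2. It was at 246, 253 and 249 CPM under hypoxia and at 332, 342 and 327 CPM under normoxia. These groups lie well apart (-0.42 ± 0.034, adjusted p = 3.74e-12). The ABHD5 model overlaps 7 others, ANO10 among them, and from exon-exon reads only the change was -0.31 (adjusted p = 0.00517). G0S2, an inhibitor of the same lipase, was at 2.16, 2.62 and 2.42 CPM under hypoxia and at 1.28, 0.73 and 1.59 CPM under normoxia, from 20 to 73 reads a library. Its values were low but did not overlap (1.01 ± 0.28, adjusted p = 0.00277). With 1 library left out the change of G0S2 ranged from 0.74 to 1.25 and stayed called. Introns held 64.8% of G0S2 reads, and from exon reads only its change was 1.18 (adjusted p = 0.0183). NCEH1, a neutral hydrolase of cholesterol esters, was lower (-0.51 ± 0.13, adjusted p = 0.00108), but was not called from exon reads only (-0.30, adjusted p = 0.136).

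Of 14 transcription regulators of lipid genes, 12 were tested, 4 were higher and 2 lower, with a median of 0.12. MLXIPL, the carbohydrate response factor ChREBP, rose from 5.99 ± 0.65 to 11.6 ± 0.70 CPM (0.96 ± 0.12, adjusted p = 5.39e-08). PPARG, the nuclear receptor of fat cell formation, fell from 42.9 ± 1.43 to 33.3 ± 1.91 CPM (-0.37 ± 0.061, adjusted p = 7.86e-06). SREBF2, a regulator of sterol genes and the most abundant of the list by TPM, rose by 0.25 ± 0.033, and its model overlaps 3 others.

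**Figure D5:**
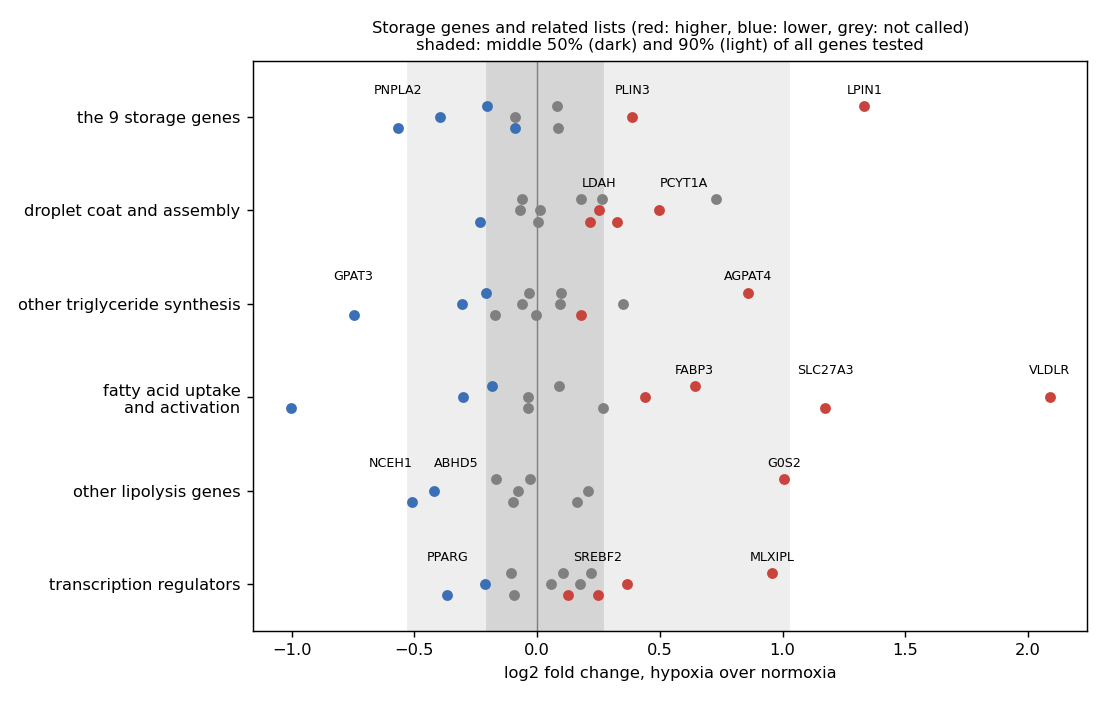
Each point is the log2 fold change (horizontal axis) of 1 tested gene in the storage set or in a related list, coloured by call, with shading for the middle 50% (-0.20 to 0.27) and 90% (-0.53 to 1.03) of all genes tested. LPIN1 at 1.33 and PNPLA2 at -0.57 are the storage genes outside the wider band, and the other 7 lie within it.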

How the data were processed

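Gene read counts, TPM and RPKM were deposited by the authors in 1 table per library, per the file headers. Libraries were made from polyadenylated RNA with a kit that does not mark strand, per the labels' protocols. The submitters' processing notes name the CanFam3.1 build. The sources used here do not name the aligner or the counting tool. Deposited TPM equals total exon reads over exon length, scaled per library, and RPKM was not used. Total gene reads were tested with edgeR 4.0.16 in R 4.3.3 (filterByExpr, TMM scaling, robust glmQLFit and glmQLFTest, Benjamini-Hochberg adjustment over 15397 genes, no covariates). SE is the absolute log2 change over the square root of the F value, and a 95% interval is 1.96 SE to each side. Exon and intron reads were compared in 1 edgeR model with a term per library. For family shares of TPM the test was an exact permutation over libraries (two-sided). The members and lists were chosen with earlier results of these data known. Named genes besides the members are the 2 called genes of largest change (mean of at least 1 CPM) and the gene of highest TPM in each list, family partners, and CA9, SLC2A1 and VEGFA. Cell type markers, HSF1, the uptake genes called lower and the lipolysis genes not called are named too. Alternatives were exon, uniquely mapped or exon-exon reads (the last chosen after seeing the data), other scalings, no filter, DESeq2 1.42.0, a replicate block and leaving out each library. Tests were tried on simulated data. No sequence table was used here.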

Additional observations from a re-analysis of the deposited data

How the results depend on the processing

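LPIN1, PLIN3 and PNPLA2 kept their direction and their call under every alternative listed above. Intron reads alone are not among these, and from them PNPLA2 was not called (-0.48, adjusted p = 0.0718 by edgeR). Members called higher numbered 2 or 3 throughout. Members called lower, 4 with all libraries and reads, numbered 2 from exon-exon reads and 2 to 4 with 1 library left out (2 without normoxia replicate 1). Over all genes, 2459 were called lower from exon-exon reads, for which fewer genes (11288) were tested. When only total reads were used for scaling, the median of all genes was -0.07. Libraries with equal replicate numbers showed no sign of pairing (correlations of their deviations -0.09, -0.01 and -0.03). Such values from 3 libraries a group cannot show whether these libraries shared a culture or day. With the replicate block, 2 members were higher and 5 lower, GPAM being added (-0.09, adjusted p = 0.0443 by edgeR), and GPAT4 was called higher (adjusted p = 0.0456). Changes near 0 turned sign without a call. RAB18 was at -0.0545 with library size only and -0.0169 to 0.0341 with 1 library left out. For exon minus intron change, PLIN2 was at 0.0186 and GPAM at 0.0304 with library size only. With 1 library left out that difference ran from -0.0863 to 0.0626 for PLIN2, -0.0705 to 0.19 for DGAT2, -0.0603 to 0.0510 for GPAM, -7.68e-05 to 0.0794 for AGPAT2 and -0.32 to 0.13 for PNPLA2. The cause was not tested. Counts in related lists moved too. By total-read scaling, 1 synthesis gene was higher and 4 lipolysis genes lower. From exon reads, and without hypoxia replicate 3, 2 lipolysis genes were higher. From exon-exon reads, too few to test G0S2, 1 uptake gene and 1 regulator were lower. Read numbers limit DGAT2, G0S2 and the intron values of PNPLA2 most.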

Other observations

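PLIN3 had an uneven share of spliced reads, noticed after the values were seen. In hypoxia replicate 3, 40.4% of its exon reads crossed an exon junction, against 51.9% and 52.9% in hypoxia replicates 1 and 2 and 51.7% to 55.8% under normoxia. The part of this library in the junction share was not tested.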
